A study of Mus musculus with 8 samples.

Results

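The genes described here are the mouse Zfp genes that were expressed in 2 Eμ-Myc lymphoma lines, that is, every gene of the deposited counts whose mouse symbol is Zfp followed by a number and that reached 1 read per 1000000 gene reads (counts in this unit are written CPM) in at least 4 of the 8 libraries. The rule kept 267 genes of the 43629 in the table, out of 373 that carry such a symbol. RNA was sequenced from B lymphoma cells of lines #1.1 and #1.2, established from C57BL/6 mice carrying the Eμ-Myc transgene, in which the immunoglobulin heavy chain enhancer drives Myc in B lineage cells. Early passage cells were kept in culture for 2 h either with 250 nM JQ1, a small molecule that competes with acetylated histones for the bromodomains of the BET proteins, or with DMSO, its solvent. The 4 groups were line 1.1 with JQ1, line 1.1 with DMSO, line 1.2 with JQ1 and line 1.2 with DMSO, with 2 libraries each. All cells therefore carried the Myc transgene, and no normal B cells or untransformed controls were part of the comparison. The labels do not tell whether the 2 libraries of a group came from separate cultures, so the tests below may rest on technical spread alone, and 2 lines stand for the whole tumour model.

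Most Zfp genes encode C2H2 zinc finger proteins, in which tandem fingers, each folded around a zinc ion held by a pair of cysteines and a pair of histidines, read a stretch of DNA. Many also carry a KRAB box near the amino terminus, which binds the corepressor TRIM28 (KAP1) and through it the histone methyltransferase SETDB1 and HP1 proteins. This machinery keeps retroelements and imprinted regions silent in mouse cells, and many KRAB genes lie in arrays that arose by duplication. A smaller number of Zfp genes have no KRAB box and act as promoter-binding factors, RNA-binding proteins or regulators of lymphocytes, and Zfp36 belongs to a different fold, the CCCH finger.

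Gene reads summed to between 11182756 and 12327717 per JQ1 library and between 10347453 and 13049877 per DMSO library, and the middle member of the family had 141 to 192 reads in a library. B lineage markers (Cd79a, Cd79b, Ebf1, Pax5 and Ighm, 5 of 5 tested) summed to 2290 to 2660 CPM in JQ1 libraries and 2510 to 2760 CPM in DMSO libraries. Of the markers of other lineages, the 6 T cell genes summed to 0.177 to 0.413 CPM in JQ1 libraries and 0.532 to 0.765 CPM in DMSO libraries, with Cd3e, Cd3g and Cd4 at 0. The 6 myeloid genes summed to 0.621 to 1.91 CPM with JQ1 and 1.15 to 2.26 CPM with DMSO, with Lyz2 at 0. The 3 erythroid genes summed to 0.182 to 0.532 CPM with JQ1 and 0.304 to 0.382 CPM with DMSO, with Hbb-bt at 0, and all 5 stromal genes were at 0. Reads assigned to no gene made up 14.0 to 14.4% of each JQ1 library and 12.3 to 13.1% of each DMSO library, a difference that went with the treatment and whose part in the results was not tested.

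Of the 267 members, 254 reached 1 CPM in all 8 libraries and 13 fell below it in at least one. Those just inside the rule were Zfp608 and Zfp773, at 1 CPM in the 4 DMSO libraries and no JQ1 library, and Zfp9, at 1 CPM in the 4 JQ1 libraries and no DMSO library. These 3 could only enter the family by differing between treatments, so their differences are a consequence of the rule. Just outside it, at 1 CPM in 3 libraries, were Zfp112, Zfp248, Zfp651, Zfp697, Zfp775 and Zfp976, with means of 0.658 to 1.19 CPM. In all, 106 Zfp genes stayed outside, 27 of them without a read in any library, and 12 of the 106 were still among the genes tested, of which 1 rose and 2 fell with JQ1. All 200 members with a mean of at least 5 CPM were at 1 CPM in every library, so none of them owed its place to 1 treatment.

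The 264 members with an annotated coding sequence held a median of 10 C2H2 fingers, from 0 to 36, the highest number being in Zfp142. A KRAB-like box was found in 150 of the 264, a SCAN-like domain (a dimerisation domain) in 9, and the remaining 3 members, Zfp783, Zfp125 and Zfp939, are annotated as pseudogenes. Levels per kilobase of exon ran from 0.164 to 65.3 CPM per kb. The highest level per kilobase was that of Zfp706 at 65.3, followed by Zfp207 at 58.0, Zfp106 at 41.6 and Zfp598 at 39.5 CPM per kb. Zfp706 is a short single-finger protein that promotes the exit of mouse embryonic stem cells from self-renewal, Zfp207 (BuGZ) binds the spindle checkpoint protein Bub3, Zfp106 binds RNA, and Zfp598 is the ubiquitin ligase that marks collided ribosomes. The KRAB-like members were lower per kilobase, with a median of 1.95 against 5.59 CPM per kb for members without the box and 6.53 CPM per kb for all genes tested.

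How the family moved with JQ1 was asked first over both lines. Averaged over the lines, 56 of the 267 members (21.0%) rose and 117 (43.8%) fell at an adjusted p under 0.05, where 30.7% of all 12413 genes tested rose and 31.3% fell. The test was edgeR's quasi-likelihood F test with Benjamini-Hochberg adjustment over all genes tested, and it stands behind every adjusted p given below unless another is named. The median log2 change, JQ1 minus DMSO, was -0.15 over the members and 0.00 over all genes tested. At least 2-fold, 26 members (9.74%) fell and 3 (1.12%) rose, against 5.87% and 3.53% of all genes tested. These counts are a description only, because Zfp608 and Zfp773 among the falls and Zfp9 among the rises entered the family through 1 treatment alone, and Zfp455, Zfp945 and Zfp949 through 4 DMSO libraries and 1 JQ1 library. Among the 200 members with a mean of at least 5 CPM, where the rule removed or added no gene by its difference, 48 (24%) rose and 77 (38.5%) fell, against 34.9% and 33.5% of all genes tested at that level. Of these 200, 8 (4.0%) fell and none rose at least 2-fold, against 3.4% and 1.52%, so the share of deep falls was near that of other genes. All 4 JQ1 libraries lay below all 4 DMSO libraries for 98 members (36.7%) and above them for 40 (15%), where the shares over all genes tested were 24.8% and 23.7%. Summed over the members, the family took 7057 to 7137 CPM in JQ1 libraries and 7385 to 7511 CPM in DMSO libraries, so every JQ1 library was below every DMSO library. The sum weighs abundant members most. For the 150 KRAB-like members alone it overlapped, with 1835 to 1887 CPM with JQ1 and 1884 to 2035 CPM with DMSO. For the 114 without the box it did not, with 5205 to 5253 CPM and 5385 to 5575 CPM. Of the members, 51 overlap exons of a gene on the opposite strand and 34 have over 20% of their 50-base windows in another gene, so reads can be shared. The 199 members with no exon overlap gave 45 rises and 85 falls (42.7%), and the 233 with at most 20% shared windows gave 52 rises and 98 falls (42.1%). The RNA came from whole cultures, so less RNA per cell and fewer cells with a given level cannot be told apart.

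The balance differed between bands of level, and this difference was not tested. Of the 67 members under 5 CPM, 55 had a KRAB-like box, against 95 of the 200 at 5 CPM or more. Level was not tested apart from the box. Among the 67 members with a mean under 5 CPM, 40 (59.7%) fell and 8 (11.9%) rose, against 24.5% and 17.6% of all tested genes in that range. Those 67 include the 13 members that did not reach 1 CPM everywhere, and all genes tested in that range reach to lower levels than the family rule allows. Among the 95 members between 5 and 20 CPM, 40 (42.1%) fell and 13 (13.7%) rose, against 36.9% and 25.1%. Among the 105 members at 20 CPM or more, 37 (35.2%) fell and 35 (33.3%) rose, against 32.3% and 38.5%, and the median log2 change was 0.03 for members and 0.03 for all genes tested. At these higher levels the shares of the family were near those of other genes.

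**Figure D1:**
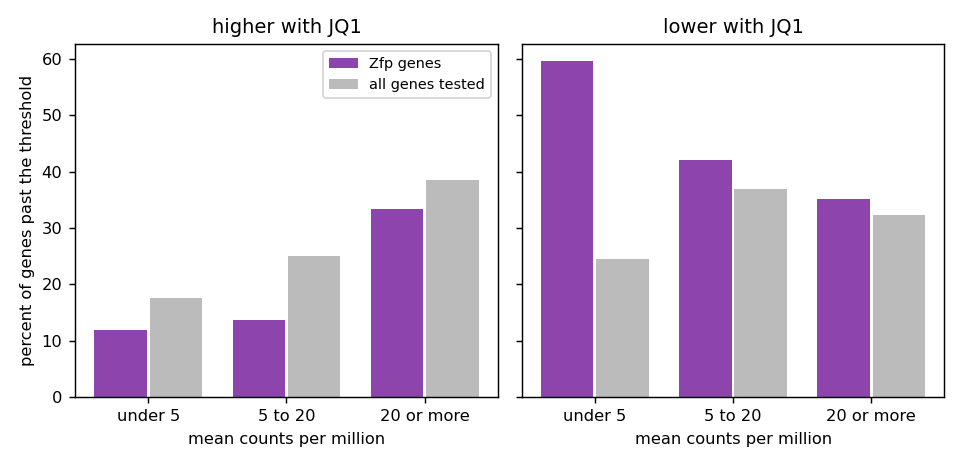
Percent of genes past an adjusted p of 0.05 for the JQ1 effect averaged over lines (y axis), by mean CPM over 8 libraries (x axis), for Zfp genes (purple) and all genes tested (grey), with genes that rose on the left and genes that fell on the right. Under 5 CPM 59.7% of the Zfp genes fell against 24.5% of all genes tested, while at 20 or more the shares were 35.2% and 32.3%. Some members under 5 CPM entered the family wholly or mainly through the libraries of 1 treatment. All genes tested under 5 CPM reach to lower levels than the family rule allows.

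Falls outnumbered rises in each line when the effects were taken per line from the same fit to all 8 libraries. In line 1.1, 50 members (18.7%) rose and 97 (36.3%) fell, against 24.9% and 26.1% of all genes tested. In line 1.2, 39 (14.6%) rose and 100 (37.5%) fell, against 24.4% and 25.0% of all genes tested. Of the members, 30 (11.2%) rose in both lines and 82 (30.7%) fell in both, against 19.5% and 20.7% of all genes tested. No member was called in opposite directions. Across the 267 members the log2 changes of the lines had a Pearson correlation of 0.89 and a Spearman correlation of 0.87, given as a description, since each line's 4 libraries are shared by all members. In line 1.1 the count of members that rose was 29 with DESeq2's Wald test, and falls still outnumbered rises.

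**Figure D2:**
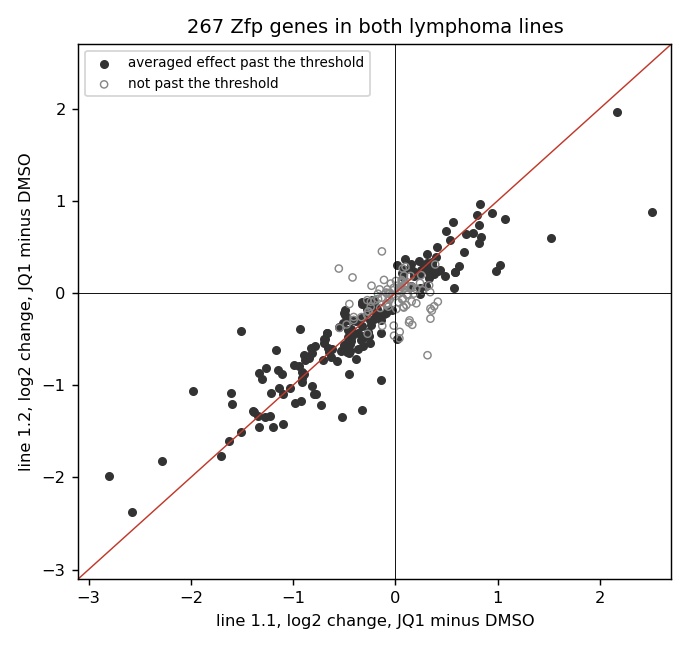
Log2 change, JQ1 minus DMSO, of the 267 Zfp genes in line 1.1 (x axis) and line 1.2 (y axis), with filled points past the threshold for the averaged effect and the red line marking equal change. The points follow the line of equal change, with a Pearson correlation of 0.89, and more of them lie at negative values in both lines.

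Among the members with a mean of at least 5 CPM, the deepest fall was that of Zfp239, the mouse Mok2 gene, which encodes a short protein of 7 fingers with no KRAB-like box. Zfp239 had 6.61 and 7.11 CPM in line 1.1 with JQ1 and 6.69 and 6.83 CPM in line 1.2 with JQ1, against 22.7 and 21.99 CPM in line 1.1 with DMSO and 23.2 and 22.8 CPM in line 1.2 with DMSO. The 8 libraries formed a tight low set and a tight high set with no overlap, and the averaged log2 change was -1.74 (SE 0.08, adjusted p = 6.24e-15), a 3.33-fold lower level. Zfp827, whose human counterpart brings the NuRD remodelling complex to telomeres in cells that lack telomerase, had 5.21 and 4.38 CPM in line 1.1 and 5.63 and 7.004 CPM in line 1.2 with JQ1, against 15.2 and 14.4 CPM in line 1.1 and 19.95 and 18.6 CPM in line 1.2 with DMSO. It fell by 1.61 on the log2 scale (SE 0.10, adjusted p = 9.16e-13), again without overlap. Zfp473, the mouse counterpart of a human component of the U7 particle that trims histone messages, had 5.95, 6.02, 8.01 and 6.65 CPM with JQ1 (line 1.1, then line 1.2), against 14.2, 13.6, 14.98 and 16.1 CPM with DMSO. Its log2 change was -1.15 (SE 0.10, adjusted p = 2.30e-10). Its exons overlap those of a gene on the opposite strand, and since the strand setting of the counting is not given in the sources used here, reads of the 2 genes cannot be told apart.

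Zfp236 was the most deeply sequenced of the 10 largest falls and encodes a protein of 30 fingers with no KRAB-like box. It had 30.9, 30.4, 34.2 and 33.6 CPM with JQ1 (line 1.1, then line 1.2), against 63.7, 68.8, 65.2 and 59.5 CPM with DMSO, a log2 change of -0.99 (SE 0.05, adjusted p = 3.72e-14). The high and the low libraries again split by treatment with no overlap. The others of the 10 largest falls were Zfp709 (-1.34), Zfp783 (-1.28), Zfp27 (-1.12), Zfp74 (-1.08), Zfp764 (-1.04) and Zfp52 (-0.95), all on the log2 scale, with adjusted p between 7.33e-12 and 5.10e-07. Zfp709, Zfp27, Zfp74, Zfp764 and Zfp52 have a KRAB-like box, and Zfp783 is annotated as a transcribed pseudogene whose exons overlap another gene on its own strand. Zfp27, Zfp74, Zfp236 and Zfp52 overlap a gene on the opposite strand, and 27.6% of the 50-base windows of Zfp764 occur in another gene, so their reads may be shared.

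The largest rise at 5 CPM or more was that of Zfp809, the KRAB protein that recognises the primer binding site of murine leukaemia viruses and brings TRIM28 to the provirus in mouse embryonic cells. Zfp809 had 22.7 and 21.5 CPM in line 1.1 and 21.0 and 20.6 CPM in line 1.2 with JQ1, against 11.6 and 11.4 CPM in line 1.1 and 11.6 and 11.3 CPM in line 1.2 with DMSO. Each treatment held a narrow range, the log2 change was 0.90 (SE 0.07, adjusted p = 1.75e-10), and the level with JQ1 was 1.87-fold higher. Zfp672, a protein of 13 fingers with no KRAB-like box, had 29.7, 29.3, 33.1 and 31.7 CPM with JQ1 (line 1.1, then line 1.2), against 17.01, 16.2, 15.5 and 17.6 CPM with DMSO, a log2 change of 0.90 (SE 0.07, adjusted p = 1.88e-11). Zfp346 (JAZ), which binds double-stranded RNA, had 45.6, 41.1, 44.5 and 42.4 CPM with JQ1, against 26.5, 23.1, 22.7 and 25.7 CPM with DMSO, a log2 change of 0.82 (SE 0.06, adjusted p = 4.07e-11). None of the 3 had overlapping groups, and the exons of Zfp672 and Zfp346 overlap a gene on the opposite strand.

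The most abundant of the 10 largest rises, Zfp664, had 123.8, 124.4, 117.2 and 112.0 CPM with JQ1 (line 1.1, then line 1.2), against 73.9, 73.1, 71.4 and 74.9 CPM with DMSO. Its log2 change was 0.70 with an SE of 0.04 (adjusted p = 1.24e-13), the smallest error among the 20 members with the largest changes. Zfp319 (0.78), Zfp850 (0.72), Zfp433 (0.68), Zfp81 (0.67), Zfp707 (0.58) and Zfp212 (0.56) made up the rest of the 10 largest rises, in log2 units, with adjusted p between 1.21e-10 and 6.35e-05. For Zfp433, 94.2% of the 50-base windows occur in another gene, so its reads cannot be assigned with certainty, and Zfp319 overlaps a gene on the opposite strand. Below 5 CPM, Zfp963 showed the largest log2 change of any member that rose, 2.07 (SE 0.16, adjusted p = 9.44e-11), and it was singled out after its values were seen. It had 6.53, 6.93, 8.10 and 7.45 CPM with JQ1 (line 1.1, then line 1.2), against 1.29, 1.72, 1.54 and 2.40 CPM with DMSO, and 40.4% of its 50-base windows occur in another gene.

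**Figure D3:**
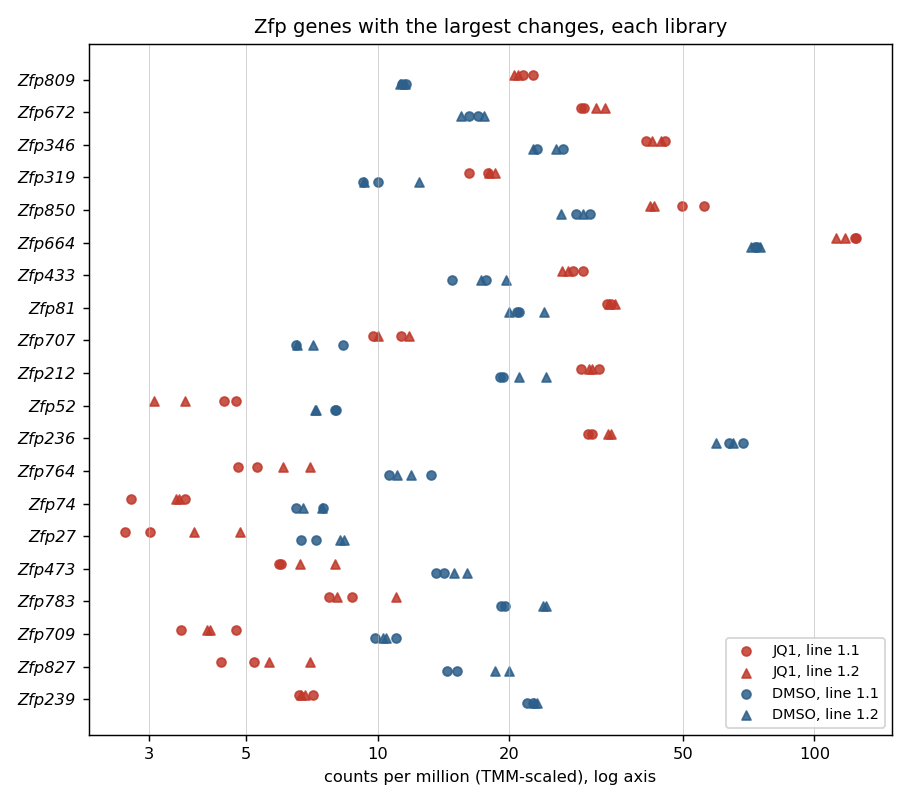
CPM (log axis) in each library for the 10 largest rises and 10 largest falls among Zfp genes with a mean of 5 or more, with JQ1 libraries in red and DMSO libraries in blue, circles for line 1.1 and triangles for line 1.2. In each of the 20 genes the 4 JQ1 points lie on the same side of the 4 DMSO points, from Zfp809 at the top (20.6 to 22.7 against 11.3 to 11.6) to Zfp239 at the bottom (6.61 to 7.11 against 21.99 to 23.2). The genes were chosen with the treatments apart within each line, so this separation is in part a result of the choice.

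The promoters of the 2 deepest falls and the 3 largest rises are shown because these genes, at moderate levels, moved the furthest and in opposite directions. Each sequence runs from 250 bases before to 50 bases after a start site annotated by RefSeq (GRCm38.p6), 5′ to 3′ on the gene's own strand, and where a gene has several starts the one nearest to the GENCODE gene start was taken. The windows are chr6:117861774-117862073 on the plus strand for Zfp239, chr8:79028187-79028486 on the plus strand for Zfp827, chr9:22225462-22225761 on the plus strand for Zfp809, chr11:58330290-58330589 on the minus strand for Zfp672 and chr13:55105059-55105358 on the plus strand for Zfp346. Capitals mark every match, on either strand, to the letters CACGTG (the E-box bound by MYC and MAX), GGGCGG (the GC box), CCAAT (the CCAAT box), TATAAA (the TATA box) or TGACTCA (the AP-1 site).
Zfp239: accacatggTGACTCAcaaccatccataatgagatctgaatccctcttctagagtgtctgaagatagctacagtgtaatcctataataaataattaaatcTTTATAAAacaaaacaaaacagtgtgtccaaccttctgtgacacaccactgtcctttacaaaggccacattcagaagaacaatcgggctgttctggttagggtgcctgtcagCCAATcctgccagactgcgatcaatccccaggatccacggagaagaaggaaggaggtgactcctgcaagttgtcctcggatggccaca
Zfp827: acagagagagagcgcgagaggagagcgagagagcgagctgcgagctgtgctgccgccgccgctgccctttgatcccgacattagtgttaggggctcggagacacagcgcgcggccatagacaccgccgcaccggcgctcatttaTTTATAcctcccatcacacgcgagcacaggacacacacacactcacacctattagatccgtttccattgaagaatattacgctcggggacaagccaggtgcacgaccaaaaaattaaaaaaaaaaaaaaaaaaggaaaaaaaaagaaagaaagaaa
Zfp809: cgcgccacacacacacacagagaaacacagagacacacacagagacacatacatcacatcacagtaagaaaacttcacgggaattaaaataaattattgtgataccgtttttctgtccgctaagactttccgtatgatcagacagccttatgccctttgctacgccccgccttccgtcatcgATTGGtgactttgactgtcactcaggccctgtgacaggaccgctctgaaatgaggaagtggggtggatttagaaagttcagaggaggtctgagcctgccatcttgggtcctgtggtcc
Zfp672: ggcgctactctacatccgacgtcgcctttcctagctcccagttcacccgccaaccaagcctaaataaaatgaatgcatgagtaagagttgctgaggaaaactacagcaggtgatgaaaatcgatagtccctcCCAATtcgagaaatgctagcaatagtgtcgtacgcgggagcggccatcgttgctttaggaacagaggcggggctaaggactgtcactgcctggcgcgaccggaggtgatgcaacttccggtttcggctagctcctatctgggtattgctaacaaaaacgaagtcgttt
Zfp346: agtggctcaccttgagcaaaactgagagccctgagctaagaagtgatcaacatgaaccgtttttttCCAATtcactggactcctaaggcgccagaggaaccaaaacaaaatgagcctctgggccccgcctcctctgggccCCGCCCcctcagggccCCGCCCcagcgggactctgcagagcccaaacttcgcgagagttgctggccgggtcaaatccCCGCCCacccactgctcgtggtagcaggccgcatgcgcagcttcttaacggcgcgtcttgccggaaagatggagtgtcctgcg

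None of the 5 windows held CACGTG. The Zfp239 window held TGACTCA at position 10, TATAAA on both strands at 101 and 103, where the matches overlap, and CCAAT at 213, counted from 1 at the 5′ end, and it had 4 CpG pairs. The Zfp827 window, with 23 CpG pairs, held only the reverse of TATAAA at 145. The Zfp809 window held CCAAT in reverse at 183 and had 11 CpG pairs, the Zfp672 window held CCAAT at 133 and had 20, and the Zfp346 window held CCAAT at 67, the GC box in reverse at 141, 157 and 218, and had 18. Matches are letters only and say nothing of binding.

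Over the family, 224 of the 267 members matched the promoter table by symbol, with 273 windows, and 10779 windows belong to genes tested. The GC box stood in 63.8% of the 58 windows of members that rose and in 43.1% of the 116 windows of members that fell, against 70.9% for all genes tested that rose and 57.3% for those that fell. CCAAT stood in 53.4% of windows of members that rose and 44.0% of those that fell, against 41.6% and 35.1% for all genes tested. The E-box stood in 8.62% and 6.90%, against 11.0% and 10.2%, TATAAA in 6.90% of both, against 6.85% and 6.55%, and the AP-1 letters in 5.17% and 3.45%, against 2.7% and 3.37%. For the E-box, TATAAA and the AP-1 letters these shares rest on 3 to 8 member windows each. Over all 32851 promoter windows, most of them of genes not tested here, the shares were 35.7% for the GC box, 37.4% for CCAAT, 7.15% for the E-box, 13.6% for TATAAA and 5.2% for the AP-1 letters. The median number of CpG pairs was 19.5 in windows of members that rose and 12.5 in windows of members that fell, against 24 and 19 for all genes tested that rose and fell.

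The family was then divided by its proteins. Of the 150 members with a KRAB-like box, 24 (16%) rose and 70 (46.7%) fell (median log2 change -0.24), and of the 114 without it, 32 (28.1%) rose and 45 (39.5%) fell (median log2 change -0.05), where 30.7% of all genes tested rose and 31.3% fell. At a mean of 5 CPM or more the shares that fell were alike and the shares that rose were not. At that level, 18 of 95 KRAB-like members (18.9%) rose and 36 (37.9%) fell, and of the 104 others 30 (28.8%) rose and 40 (38.5%) fell, against 34.9% and 33.5% of all genes tested. By line, the shares that rose were apart in line 1.2 only. They were 22.1% of the KRAB-like members and 21.2% of the others in line 1.1, and 11.6% and 23.1% in line 1.2. Over all genes tested, at any level, 24.9% rose in line 1.1 and 24.4% in line 1.2. Under 5 CPM, 6 of the 55 KRAB-like members rose and 34 (61.8%) fell, and 2 of the 10 others rose and 5 (50.0%) fell, against 17.6% and 24.5% of all genes tested. The difference between the classes was not tested. Of the 26 members that fell at least 2-fold, 19 had the box, in a family where 150 of the 264 coding members had it. The 26 include members that entered the family wholly or mainly through DMSO libraries, as given above, so this count is a description only. By number of fingers, 25 (17.2%) rose and 67 (46.2%) fell of the 145 members with at least 10 fingers, and 29 (25.7%) rose and 46 (40.7%) fell of the 113 with 1 to 9, beside the same 30.7% and 31.3% of all genes tested. Across the 264 coding members the number of fingers and the averaged log2 change had a Spearman correlation of -0.10, given as a description. Among the 9 SCAN-like members, which include Zfp445 and Zfp263, 3 rose and 3 fell.

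**Figure D4:**
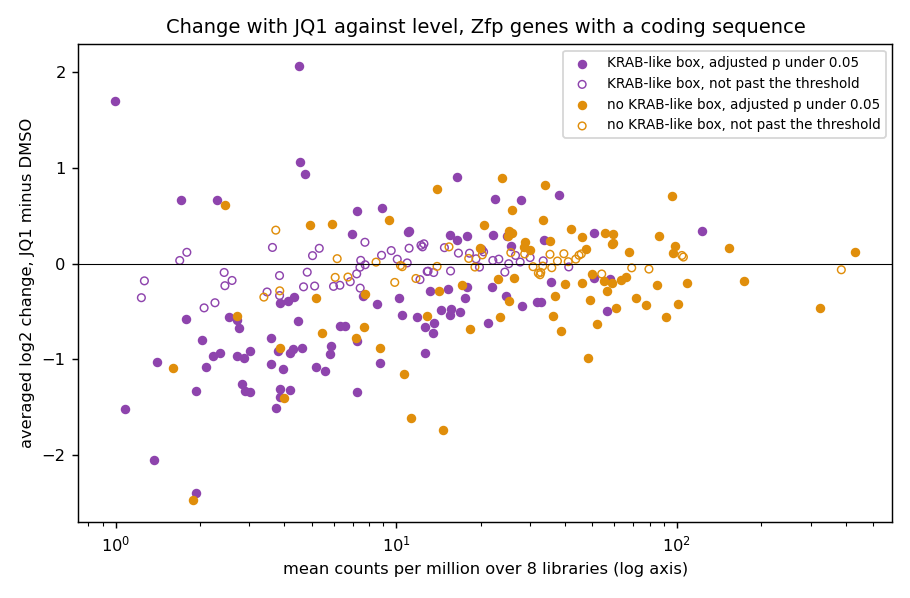
Averaged log2 change, JQ1 minus DMSO (y axis), against mean CPM over 8 libraries on a log axis (x axis) for the 264 Zfp genes with a coding sequence, in purple with and in orange without a KRAB-like box, filled where the adjusted p was under 0.05. Most of the changes below -1 belong to KRAB-like genes under 5 CPM, while the members at 20 CPM or more lie on both sides of 0. Some members under 5 CPM entered the family wholly or mainly through the libraries of 1 treatment.

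The position of the genes was not used to choose them. Runs of neighbouring members, with at most 500 kb between starts and at least 4 members, numbered 15 and held 116 members, of which 22 (19.0%) rose and 58 (50.0%) fell, while of the 151 outside such runs 34 (22.5%) rose and 59 (39.1%) fell, where 30.7% of all genes tested rose and 31.3% fell. The highest number of members in a run was 17, in 2 runs. One of these, all KRAB-like, lies on chromosome 13 (GRCm38 chr13:67038596-67827002) and reaches from Zfp712 to Zfp273. In it 13 members fell, 1 rose and 3 passed in neither direction. Zfp455 had the largest fall of the run, -2.05. It passed the rule through 4 DMSO libraries and 1 JQ1 library, so its place in the family depended in part on that fall. The median log2 change of the run was -0.72, where 34.1% of the tested genes of that chromosome fell and 29.8% rose. These chromosome shares were not matched for level, and the run's members had means of 1.38 to 20.2 CPM. Position was not tested apart from level or the KRAB-like box. For 11 of the 17, every JQ1 library lay below every DMSO library, as for 24.8% of all genes tested. In line 1.1, 10 fell and 2 rose, and in line 1.2, 12 fell and 1 rose. Over all genes tested, 26.1% fell and 24.9% rose in line 1.1, and 25.0% fell and 24.4% rose in line 1.2.

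Within this chromosome 13 run the changes were not uniform. Zfp953 had 8.51, 8.57, 8.98 and 8.78 CPM with JQ1 (line 1.1, then line 1.2), against 16.2, 15.9, 15.4 and 19.2 CPM with DMSO, a log2 change of -0.94 (SE 0.09, adjusted p = 3.69e-09). Zfp493 had 2.73, 2.19, 2.64 and 1.95 CPM with JQ1, against 5.62, 5.74, 5.96 and 6.62 CPM with DMSO, a log2 change of -1.32 (SE 0.16, adjusted p = 8.55e-08). In both genes the treatments were apart in every library. In the same run, Zfp459 rose, with 7.85, 6.93, 5.81 and 4.26 CPM with JQ1, against 3.34, 1.63, 3.07 and 3.56 CPM with DMSO (log2 change 1.06, SE 0.17, adjusted p = 1.02e-05), and Zfp87 and Zfp748 had log2 changes of 0.11 and 0.15 that did not pass. These genes were picked from the run after their values were seen. Zfp429, Zfp58, Zfp85 and Zfp273 have over 20% of their 50-base windows in another gene, so reads may have moved between neighbours.

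The 9 other tested genes inside the chromosome 13 run, which no rule of the family used, gave 6 falls and 1 rise, with a median log2 change of -0.51, where 31.3% of all genes tested fell and 30.7% rose. They include Rsl1, a KRAB zinc finger gene that controls sex-limited liver genes in mice, which had 1.82, 2.46, 3.43 and 2.48 CPM with JQ1 (line 1.1, then line 1.2), against 4.56, 4.21, 4.87 and 7.29 CPM with DMSO, a log2 change of -1.05 (SE 0.18, adjusted p = 1.95e-05). Zfp874a, Zfp874b, Zfp729a and Zfp729b, whose symbols end in a letter and so fall outside the rule, fell by 0.51, 0.74, 0.19 and 0.21 on the log2 scale, with adjusted p between 1.52e-06 and 0.0323. The abundant transcript Gm9625, at 931 CPM on average, rose by 0.22.

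A second run of 17 KRAB-like members, on chromosome 17 (chr17:21008903-22867134, Zfp160 to Zfp945), held 13 members that fell, none that rose and 4 that passed in neither direction. The median log2 change was -0.54, where 31.2% of the tested genes of that chromosome fell and 34.1% rose. Here too the chromosome shares were not matched for level, and the run's members had means of 1.24 to 22.0 CPM. Line 1.1 alone gave 8 falls and line 1.2 alone 13, where 26.1% and 25.0% of all genes tested fell. Zfp946 had 2.31, 1.92, 2.47 and 2.13 CPM with JQ1 (line 1.1, then line 1.2), against 5.17, 5.16, 6.05 and 5.63 CPM with DMSO, a log2 change of -1.31 (SE 0.16, adjusted p = 1.23e-07), and Zfp160, at a mean of 16.9 CPM, had one of -0.51. Zfp945, which passed the rule through 4 DMSO libraries and 1 JQ1 library, had the largest fall of the run, -2.40, and its place in the family depended in part on that fall. Zfp948, Zfp820, Zfp943 and Zfp758 gave log2 changes between -0.36 and 0.12 and did not pass.

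The remaining runs varied in direction. Their small counts are to be read beside the 30.7% of all genes tested that rose and the 31.3% that fell. Of the 5 members from Zfp606 to Zfp446 on chromosome 7, 4 fell and none rose (median log2 change -0.49), of the 5 from Zfp180 to Zfp428 on the same chromosome 3 fell and none rose, and of the 5 from Zfp560 to Zfp846 on chromosome 9 3 fell and 1 rose. Also on chromosome 7, the run from Zfp84 to Zfp146 (12 members) gave 2 rises and 5 falls, with Zfp27 and Zfp74 deep among the falls and Zfp568 among the rises, although these genes lie within the interval chr7:29768552-30169750. The run from Zfp871 to Zfp414 on chromosome 17 (9 members, 8 with a KRAB-like box) gave 2 rises and 2 falls with a median log2 change of 0.00. On chromosome 8 the 5 members from Zfp930 to Zfp866, all KRAB-like, gave 3 rises and no fall in the averaged effect, though Zfp868 fell in line 1.2 (adjusted p = 0.0353). The 4 members from Zfp709 to Zfp961, also all KRAB-like, gave 3 falls and no rise (median log2 change -0.71). On chromosome 10 the 4 members from Zfp433 to Zfp938 gave 3 rises in the averaged effect, while Zfp938 fell in line 1.2 (adjusted p = 0.0288), and Zfp433 and Zfp781 are among the 14 members with over 50% of their 50-base windows in another gene. The run from Zfp398 to Zfp746 on chromosome 6 (7 members) gave 3 rises and 3 falls. On chromosome 7, the run from Zfp553 to Zfp646 (10 members) gave 1 rise and 4 falls. Those from Zfp628 to Zfp580 and from Zfp60 to Zfp36 (6 members each) gave 2 rises and 2 falls, and 3 rises and 1 fall. The run from Zfp653 to Zfp810 on chromosome 9 (4 members) gave 1 rise and 2 falls.

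**Figure D5:**
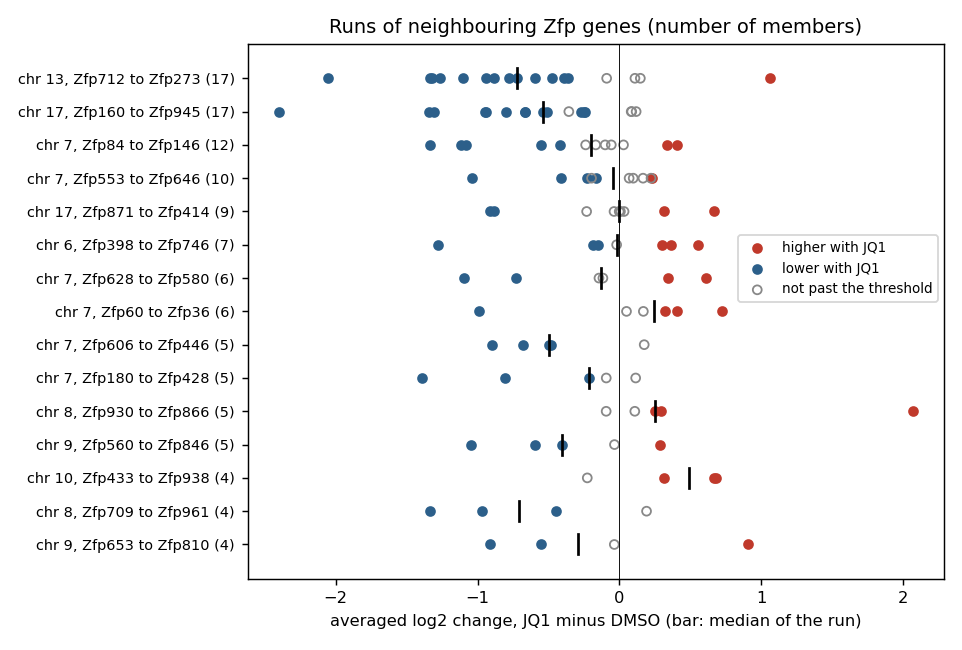
Averaged log2 change, JQ1 minus DMSO (x axis), of each Zfp gene in the 15 runs of at least 4 neighbouring members (rows, with the number of members in brackets), red where it rose, blue where it fell and open where it did not pass the threshold, with a bar at the median of the run. The 17-member runs on chromosomes 13 and 17 lie mostly at negative values, with medians of -0.72 and -0.54, while the runs with rises include one on chromosome 8 and one on chromosome 10.

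Lists of members with a known role were described by their counts, to be read beside the 30.7% of all genes tested that rose and the 31.3% that fell. Among the members named below, Zfp106, Zfp706, Zfp608, Zfp507, Zfp687 and Zfp143 have exons that overlap a gene on the opposite strand and Zfp91 one on its own strand. The RNA-binding and ribosome-linked list had 9 members, all tested, of which 4 rose and 3 fell, and the median log2 change was -0.06. Zfp346, Zfp36, Zfp598 and Zfp106 rose, and Zfp638, Zfp326 and Zfp622 fell, while Zfp207 and Zfp593 did not pass. Zfp598, Zfp106 and Zfp622 did not pass in line 1.1 (adjusted p = 0.149, 0.164 and 0.274). Zfp36 (tristetraprolin), which speeds the decay of messages with AU-rich elements, had 55.4 and 59.3 CPM in line 1.1 and 65.6 and 67.1 CPM in line 1.2 with JQ1, against 43.6 and 49.0 CPM in line 1.1 and 53.1 and 52.6 CPM in line 1.2 with DMSO. It rose by 0.32 on the log2 scale (SE 0.05, adjusted p = 3.98e-06), and every JQ1 library was above every DMSO library.

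Zfp638, whose human counterpart helps to silence unintegrated retroviral DNA, had 77.6, 78.7, 67.4 and 72.2 CPM with JQ1 (line 1.1, then line 1.2), against 115.0, 107.9, 105.3 and 107.9 CPM with DMSO, a log2 change of -0.56 (SE 0.04, adjusted p = 1.79e-11). Zfp326, in human cells part of a complex that couples RNA polymerase elongation to splicing, had 17.02, 24.3, 17.1 and 17.7 CPM with JQ1, against 28.5, 27.7, 27.2 and 27.6 CPM with DMSO, a log2 change of -0.56 (SE 0.08, adjusted p = 1.92e-06). One JQ1 library of line 1.1 stood above the other 3 for Zfp326, yet all 4 were below the DMSO libraries. The changes of the most abundant members were small: log2 0.12 for Zfp106 (adjusted p = 0.00146), 0.17 for Zfp598 (adjusted p = 2.45e-04) and -0.06 for Zfp207 (adjusted p = 0.0900), which did not pass. Zfp706, at the highest level per kilobase, fell by 0.47 (SE 0.03, adjusted p = 4.52e-12).

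Of the 13 lymphocyte regulators, 9 were tested, and 6 fell while 3 rose (median log2 change -0.21). In line 1.1, 6 fell and 2 rose, and in line 1.2, 3 fell and 3 rose. Zfp521 and Zfp683 had no read in any library, and Zfp423 and Zfp831 stayed under the filter. Zfp318, which keeps transcription running through the IgM exons to IgD in mouse B cells, had 58.9, 59.5, 66.3 and 66.1 CPM with JQ1 (line 1.1, then line 1.2), against 49.2, 56.4, 53.2 and 59.0 CPM with DMSO. It rose by 0.20 (SE 0.05, adjusted p = 0.00118), with the ranges meeting across lines, since one line 1.2 DMSO library was above one line 1.1 JQ1 library. Zfp384, a partner in gene fusions of human B cell leukaemia, had 63.0, 61.2, 64.6 and 61.2 CPM with JQ1, against 75.2, 91.5, 75.2 and 79.2 CPM with DMSO, a log2 change of -0.36 (SE 0.05, adjusted p = 2.59e-06). Zfp91, a ubiquitin ligase of the noncanonical NF-κB pathway, fell by 0.18 (SE 0.04, adjusted p = 1.20e-04). Zfp608, which represses the Rag genes in mouse thymocytes, had 0.331, 0.547, 0.880 and 0.532 CPM with JQ1, against 2.05, 3.35, 3.70 and 3.73 CPM with DMSO (log2 change -2.48, SE 0.28, adjusted p = 3.20e-08), and it is one of the 3 members whose place depended on its difference. Zfp292 rose by 0.18. In the averaged effect Zfp335, Zfp341 and Zfp609 fell by 0.21, 0.36 and 0.22, but they did not pass in line 1.2 (adjusted p = 0.315, 0.385 and 0.129). Zfp318 did not pass in line 1.1 (adjusted p = 0.0508).

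Of the 12 promoter-binding regulators, 11 were tested, and 7 fell while 2 rose (median log2 change -0.29, against 0.00 over all genes tested). Zfp143, an activator bound at many promoters and at the ends of chromatin loops, had 28.2, 32.1, 31.3 and 30.3 CPM with JQ1 (line 1.1, then line 1.2), against 31.7, 30.8, 27.2 and 34.5 CPM with DMSO, a log2 change of -0.03 (SE 0.07, adjusted p = 0.703), with the groups overlapping. Zfp281, a partner of NANOG in mouse embryonic stem cells, had 54.2, 55.4, 44.5 and 47.9 CPM with JQ1, against 43.8, 43.3, 40.2 and 39.0 CPM with DMSO, and rose by 0.28 (SE 0.05, adjusted p = 3.17e-05). Zfp217, a component of LSD1 and CoREST complexes in human cells, had 48.8, 46.7, 54.2 and 55.9 CPM with JQ1, against 68.2, 72.1, 72.6 and 69.4 CPM with DMSO, a log2 change of -0.46 (SE 0.05, adjusted p = 4.63e-09). Zfp451, the counterpart of a human SUMO ligase, fell by 0.42, Zfp507 by 0.38, Zfp219 by 0.32 and Zfp516 by 0.29. Zfp131 rose by 0.11, and each of these passed the threshold in the averaged effect. Zfp219 passed in neither line (adjusted p = 0.0548 in line 1.1 and 0.145 in line 1.2), and Zfp131 did not pass in line 1.2 (adjusted p = 0.284). Zfp335 and Zfp384, given with the lymphocyte regulators, belong to this list as well, Zfp148 had a log2 change of 0.08 that did not pass, and Zfp462 had no read in any library.

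The zinc finger proteins ZNF687, ZNF592 and ZNF532 form a complex with the bromodomain protein ZMYND8 in human cells. Zmynd8 itself had 45.5, 47.1, 50.2 and 50.1 CPM with JQ1 (line 1.1, then line 1.2), against 99.2, 131.9, 115.2 and 113.1 CPM with DMSO, a log2 change of -1.25 (SE 0.06, adjusted p = 1.82e-14). Of its Zfp partners, 1 rose and 1 did not pass. Zfp592 had 95.4, 90.0, 93.9 and 101.4 CPM with JQ1, against 75.7, 83.1, 75.6 and 78.3 CPM with DMSO, and rose by 0.29 (SE 0.04, adjusted p = 4.44e-06). Zfp687 had 35.2, 35.9, 35.4 and 34.7 CPM with JQ1, against 37.1, 38.6, 35.9 and 34.1 CPM with DMSO, a log2 change of -0.04 (SE 0.05, adjusted p = 0.4999). Zfp532 averaged 0.305 CPM and was not tested.

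Of the 9 retroelement and imprint regulators, 5 were tested, and besides Zfp809 one other rose. Zfp568, which silences a placental promoter of Igf2 in mouse embryos, was the KRAB-like member with the highest level per kilobase. It had 156.6 and 159.5 CPM in line 1.1 and 115.9 and 116.2 CPM in line 1.2 with JQ1, against 126.4 and 119.8 CPM in line 1.1 and 88.6 and 98.1 CPM in line 1.2 with DMSO, a log2 change of 0.34 (SE 0.04, adjusted p = 7.12e-08). The treatments were apart within each line but not across lines. Zfp992 fell by 0.62 (SE 0.08, adjusted p = 2.88e-07) and Zfp932 by 0.34 (SE 0.06, adjusted p = 5.28e-05), and 43.7% and 45.2% of their 50-base windows occur in another gene. Zfp445, which with ZFP57 maintains imprints in mice, fell by 0.16 (SE 0.05, adjusted p = 0.0114) but did not pass in line 1.1 (adjusted p = 0.304). Zfp57 had no read in any library, and Zfp600, Zfp708 and Zfp819 stayed under the filter.

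The partners through which KRAB proteins act are not members and were taken as a list of 20 symbols, of which Tasor is another name of Fam208a and the other 19 were tested, and 9 rose while 5 fell (median log2 change 0.05), where 30.7% of all genes tested rose and 31.3% fell. Trim28 had 826.6, 809.5, 812.5 and 818.3 CPM with JQ1 (line 1.1, then line 1.2), against 641.5, 644.8, 623.5 and 610.6 CPM with DMSO, a log2 change of 0.37 (SE 0.03, adjusted p = 8.42e-11). Setdb1 had 143.8, 138.7, 131.6 and 133.6 CPM with JQ1, against 129.5, 129.4, 118.7 and 114.9 CPM with DMSO, a log2 change of 0.15 (SE 0.04, adjusted p = 5.76e-04). Both were higher in every JQ1 library, and Cbx5 (HP1 alpha) rose by 0.30, Cbx1 (HP1 beta) by 0.14, Chd4 by 0.38 and Morc2a by 0.41. Cbx3 (HP1 gamma) fell by 0.15 (adjusted p = 0.00100), Uhrf1 by 0.20 and Smarcad1 by 0.25. Cbx3 did not pass in line 1.1 (adjusted p = 0.285), nor Cbx1 in line 1.2 (adjusted p = 0.0573). Mphosph8 and Fam208a, subunits of the HUSH silencing complex, fell by 0.46 and 0.36, and Pphln1, its other subunit, had a log2 change of 0.01 (adjusted p = 0.854).

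The lines differed little in these genes. In DMSO, 8 members (3%) were higher and 4 (1.5%) lower in line 1.2 than in line 1.1, against 3.59% and 3.17% of all genes tested. Zfp568 had 88.6 and 98.1 CPM in line 1.2, against 126.4 and 119.8 CPM in line 1.1, a log2 difference of -0.40 (SE 0.06, adjusted p = 3.74e-05), and it stayed past the threshold in 8 of 8 fits that each left out 1 library. Zfp362 had 11.6 and 12.1 CPM in line 1.2, against 6.08 and 6.41 CPM in line 1.1, a log2 difference of 0.93 (adjusted p = 1.25e-04), and Zfp105 had 8.21 and 7.70 CPM, against 4.25 and 4.21 CPM, a difference of 0.91 (adjusted p = 0.00183). Both also held in 8 of 8 such fits. Zfp53 (-0.46), Zfp710 (-0.24) and Zfp609 (-0.23) were lower in line 1.2, and Zfp358 (0.93), Zfp182 (0.82), Zfp984 (0.70), Zfp382 (0.65), Zfp316 (0.54) and Zfp827 (0.37) higher (57.4% of the 50-base windows of Zfp984 occur in another gene), and each of these lost its call in 2 or more of the 8 fits. The count was 2 higher and 2 lower without line 1.2 DMSO replicate 1, 3 and 1 without line 1.2 DMSO replicate 2, and 7 lower without line 1.1 DMSO replicate 1. DESeq2's Wald test called 2 higher and 1 lower, and the calls it shared were Zfp568, Zfp362 and Zfp105.

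Whether JQ1 acted differently in the lines was tested directly by the interaction. No member passed with edgeR (0 higher and 0 lower), and DESeq2 and limma-voom called 0 as well, while 25 had an unadjusted p under 0.05, the lowest adjusted p being 0.149 for Zfp942, and 0.0806% of all genes tested were called higher and 0.0322% lower. Without line 1.1 DMSO replicate 1 the same test called 6 members, Zfp580 and Zfp609 with a higher and Zfp459, Zfp960, Zfp942 and Zfp958 with a lower change in line 1.2. The 2 DMSO libraries of line 1.1 differed more from each other than the libraries of the other groups did, with a chi-square of 3.82 per degree of freedom, against 1.33 to 2.03.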

How the data were processed

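The deposited values are whole-number counts of reads per Ensembl gene, which the authors left unnormalised. Per the submitters' processing notes, FastQC, cutadapt 1.7, TopHat, Bowtie2, HTSeq and limma were used with GRCm38 (mm10). Per the labels' protocols, cDNA libraries came from a TruSeq kit of Illumina. Which annotation release and strand setting were used is not given in the sources used here. The 5 summary lines of the file, with 12.3 to 14.4% of reads assigned to no gene and 1.54 to 1.67% ambiguous, were left out. Symbols, coordinates, exon lengths and coding sequences are from GENCODE M21 (42462 of 43629 identifiers matched), promoters from RefSeq.

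In R 4.3.3, edgeR 4.0.16 kept 12413 genes (filterByExpr, minimum count 10, minimum total 15), scaled libraries by TMM and fitted 4 group means to all 8 libraries (4 residual degrees of freedom) with two-sided quasi-likelihood F tests. CPM are counts per 1000000 of the scaled library size, and the SE of a log2 change is its size over the square root of F. The family rule used CPM of the unscaled gene reads. The procedure was checked on simulated counts. DESeq2 1.42.0, limma 3.58.1 (voom) and other scalings, filters and thresholds were tried. The labels do not tell whether the same replicate number in different groups marks libraries that were handled together.

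C2H2 fingers were counted by the spacing of cysteines and histidines in the protein translated from the longest coding sequence. A KRAB-like box was called by a spaced pattern of its conserved residues in the first 350 residues, and a SCAN-like domain likewise, so both are calls by pattern and may miss divergent copies. Shared sequence is the percent of 50-base exon windows that occur in another gene.

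Named members are the 10 largest rises and 10 largest falls past 0.05 with a mean of at least 5 CPM and the libraries apart in each line, the 5 with the highest mean CPM, up to 5 each way between lines, up to 4 of each role list with the smallest p, and Zfp36, Zfp318, Zfp143, Zfp281, Zfp207, Zfp91, Zfp687, Zfp592, Zfp532, Zfp809, Trim28 and Setdb1. Genes of the runs and Zfp963 were named after their values were seen, as were the remaining genes of the role lists. The members and lists were chosen with earlier results of these data known. Of the marker genes of other and B lineage cells, 2 are not reported here.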

Additional observations from a re-analysis of the deposited data

How the results depend on the processing

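The direction of the imbalance, more members lower than higher with JQ1, was the same under each alternative run for the averaged effect and for each line. A test against a fold change of 1.5 left 10 members higher and 30 lower for the averaged effect, 10 and 27 in line 1.1, 4 and 21 in line 1.2, and 0 and 0 for the line difference. A rule of a mean of at least 5 CPM left 77 lower for the averaged effect, 66 lower in line 1.2 and 5 higher in line 1.2 than in line 1.1, by its construction over 200 members. DESeq2 gave 29 higher in line 1.1 and 2 higher and 1 lower for the line difference. A threshold of 0.01 gave 3 and 1 for that difference, and only the 4 libraries compared gave 1 lower. Where no cause is named, the cause was not tested.

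Leaving out each library in turn gave 49 to 61 higher and 107 to 117 lower for the averaged effect, 37 to 50 and 72 to 96 in line 1.1, 26 to 43 and 79 to 108 in line 1.2, 0 to 2 and 0 to 4 for the interaction, and 2 to 12 and 1 to 7 for the line difference. Fits without 1 library assume that the lone library left varies like the other groups.

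Of 55 named genes under 18 alternatives, 989 values were had, none changed direction past the threshold, 31 lost their call, all under the test against 1.5, and 4 gained one. With the replicate number as a block, 56 members were higher and 116 lower for the averaged effect, and 8 higher and 5 lower between lines, and no other count moved past 1.5 times. The difference between replicate 1 and replicate 2 had Pearson correlations of -0.03 to 0.08 between groups over all genes tested. The sample titles number every replicate 1 library before every replicate 2 library, and whether libraries of the same number were handled together was not tested. Counting error is wide for the lowest members, which reach down to 2 reads in a library, and each change is relative to the TMM-scaled library size.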
